A study of Mus musculus with 42 samples.

Results

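Small nucleolar RNAs (snoRNAs) were examined in mouse kidney over 1 day and under 2 diets. The genes are those whose symbol starts with Snord, Snora or Scarna and whose mean over the 14 deposited expression columns was at least 1. They were thus chosen by their level alone, over both diets and all times together, and their levels are given as a description. Of 113 genes with such a symbol in the tables, 26 met this level, out of 56691 genes in all. They comprise 16 of 70 Snord genes, 7 of 37 Snora genes and 3 of 6 Scarna genes. The reference annotation types 24 of them as snoRNA and 2, Scarna2 and Scarna17, as scaRNA.

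SnoRNAs are short, stable nuclear RNAs that guide chemical marks onto other RNAs. Box C/D snoRNAs (Snord) pair with ribosomal RNA and direct methylation of the ribose by the enzyme fibrillarin, and box H/ACA snoRNAs (Snora) direct the change of uridine to pseudouridine by dyskerin. Small Cajal body RNAs (Scarna) do the same on the RNAs of the spliceosome. In vertebrates most lie in introns of host genes, many of which encode ribosomal proteins or translation factors, and are trimmed out of the spliced intron. They have no poly(A) tail. The box C/D snoRNAs of the Rpl13a introns, Snord32a among them, are known from cell culture as mediators of fatty acid toxicity and oxidative stress.

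The kidneys came from male wild-type C57BL/6 mice kept with 12 h of light a day. From 6 weeks of age, and for 14 weeks, one group ate standard chow and the other a high-fat diet that held 3% EpSA (epoxystearic acid, which forms when frying oil is heated). Tissue was collected at zeitgeber time (ZT, counted in hours from lights on) 1, 5, 9, 13, 17, 21 and 25. Each diet and time had 3 of the 42 libraries, and the tables hold 1 mean over those 3 mice, here called a pool, so the spread between mice is unknown. The effects of the fat and of the EpSA cannot be told apart, since the high-fat group without EpSA is not analysed here. In bulk tissue, fewer cells of a type and less RNA per cell cannot be told apart either.

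The sequences of 7 of these genes are shown because the differences between diets or over the day described below concern them, or because their levels were the highest. They are the GENCODE M21 transcripts of mouse build GRCm38, matched by gene identifier, 5′ to 3′. Capitals mark a box C core (TGATG within the first 20 bases) and a box D (CTGA within the last 20) in the Snord genes. In the Snora genes they mark the last ACA within the last 10 bases as an ACA box. In Snora41 the marked ACA has 1 base after it, against 3 in Snora31 and Snora69. It overlaps an ACA just before it, which has 3 bases after it, as in Snora31 and Snora69. By that spacing the earlier ACA would be the box, which the capitals, set by the search rule, do not mark.
Snord91a (chr11:74905424-74905516, plus strand): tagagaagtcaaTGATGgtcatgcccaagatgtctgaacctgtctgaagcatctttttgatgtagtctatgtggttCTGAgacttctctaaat
Snord98 (chr10:62765576-62765640, minus strand): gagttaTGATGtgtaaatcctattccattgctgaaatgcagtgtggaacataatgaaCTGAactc
Snord71 (chr8:109839295-109839379, plus strand): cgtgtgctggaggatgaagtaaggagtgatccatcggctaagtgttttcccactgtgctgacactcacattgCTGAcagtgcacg
Snord32a (chr7:45127382-45127464, minus strand): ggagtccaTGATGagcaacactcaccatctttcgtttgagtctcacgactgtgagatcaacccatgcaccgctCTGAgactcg
Snora31 (chr14:75847905-75848034, plus strand): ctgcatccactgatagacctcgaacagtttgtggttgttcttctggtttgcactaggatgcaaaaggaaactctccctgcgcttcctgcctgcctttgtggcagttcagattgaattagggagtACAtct
Snora41 (chr1:63179004-63179135, plus strand): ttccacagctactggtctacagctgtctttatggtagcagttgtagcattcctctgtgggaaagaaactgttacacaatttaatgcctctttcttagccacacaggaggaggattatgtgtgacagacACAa
Snora69 (chrX:37082912-37083042, minus strand): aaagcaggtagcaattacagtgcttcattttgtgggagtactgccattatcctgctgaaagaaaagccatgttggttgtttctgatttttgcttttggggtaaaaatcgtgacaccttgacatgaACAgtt

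Searched on the RNA strand only, both boxes were found in 13 of 15 Snord genes with a mean of at least 1 and in 43 of 54 below it. Snord71 had no TGATG and Snord53 no CTGA in these windows. The ACA box was found in 7 of 7 Snora genes with a mean of at least 1 and in 27 of 29 below. Genes on chromosome 18 were left out of this search.

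The place in the host gene was tabulated by level. A same-strand gene spanned 23 of the 26, and 22 of these lay in an intron by every annotated transcript. Only 1 of the 26, Snord42b in Rpl23a, overlapped an annotated exon of another gene on its strand. Of the 28 genes above 0 but with a mean under 1, 7 overlapped such an exon, and of the 59 genes at 0 in all 14 pools, 47 did. Read the other way, 47 of 55 snoRNA genes that overlapped an exon were listed at 0, against 12 of 58 that did not. This comparison was chosen after the values were seen, and how the authors' counting treated overlapping genes is not given in the sources used here. Its part in the zeros was not tested. Among 987 other genes typed as snoRNA or scaRNA, the share at 0 was 78.5% of the 107 that overlapped an exon and 67.3% of the 880 that did not.

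In the introns, the 15 measured Snord genes had a median of 114 bases to the next host exon downstream. The distance was at most 100 bases in 6 of them, such as Snord58b and Snord37 at 67 bases each. Snord32a lay 107 bases before the next exon of Rpl13a, and Snord98 142 bases before that of Ccar1, a regulator of transcription and apoptosis. Snord71 lay 3973 bases before the next exon of Ap1g1, an adaptor subunit of clathrin coats. Snora31 lay 64 bases before the next exon of Tpt1, the gene of translationally controlled tumour protein.

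Levels were low and rested on few sequenced fragments. FPKM, fragments per kilobase of transcript scaled to the depth of the library, is scaled to transcript length. For genes shorter than the read it also depends on how short genes were counted, which is not given in the sources used here. Among genes of 60 to 200 bases that were above 0 in a pool, between 27.4% and 35.9% sat on a lowest step, which read as 1 fragment in 1 of 3 mice gives libraries of about 11600000 to 17400000 fragments. On that reading the 26 genes had between 3.33 and 69.5 fragments per pool of 3 mice, with a median of 10.2, and 13 had fewer than 10. The variance over the 14 pools divided by the mean was between 0.608 and 5.08, with a median of 2.01, where counting error alone gives a ratio of 1. Of the 26 genes 25 were shorter than the read length of 150 bases.

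**Figure D1:**
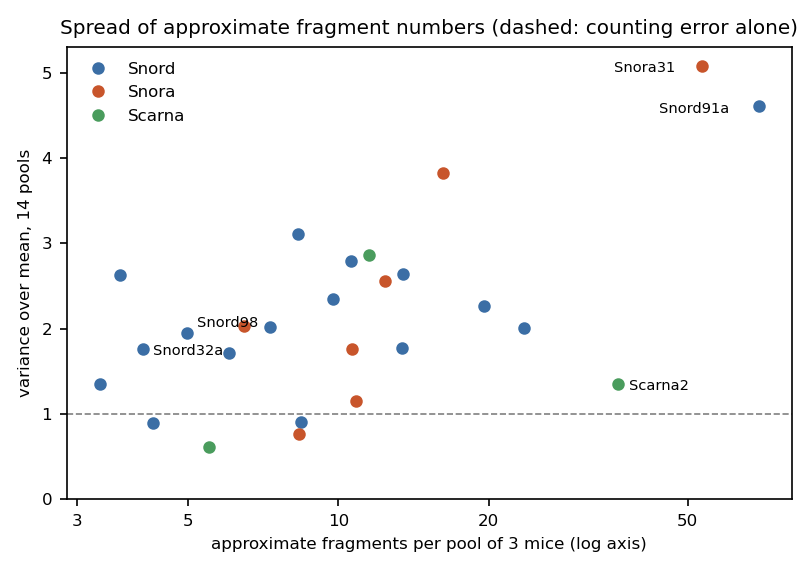
Approximate fragments per pool of 3 mice (x axis, logarithmic) against the ratio of variance to mean over the 14 pools (y axis), 1 point per gene, coloured by class. Snord91a and Snora31 have the most fragments and the highest ratios, and 4 genes lie below the dashed line of counting error alone.

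Snord91a was the highest, at 9.24 to 20.7 FPKM in chow with a median of 14.9, and at 13.6 to 25.0 in EpSA with a median of 18.2. Its host Tsr1, a maturation factor of the small ribosomal subunit, was at 6.34 FPKM in chow. Snora31 followed at 4.72 to 14.7 FPKM in chow (median 9.27) and 6.95 to 12.0 in EpSA (median 8.62). Snord72, in the ribosomal protein gene Rpl37, averaged 6.57 FPKM over the 14 pools. These 3 genes held 39.4% of the summed FPKM of the 26. The next were Snord7 at 4.59 FPKM, Snord123 at 4.21, Snord73a at 3.24, Scarna17 at 3.23, Snord58b at 2.89, Snord71 at 2.81, Snora41 at 2.74, Snord89 at 2.71 and Snora20 at 2.18. The ranges over pools overlapped for all 25 pairs of neighbours in the order of the 26 levels.

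**Figure D2:**
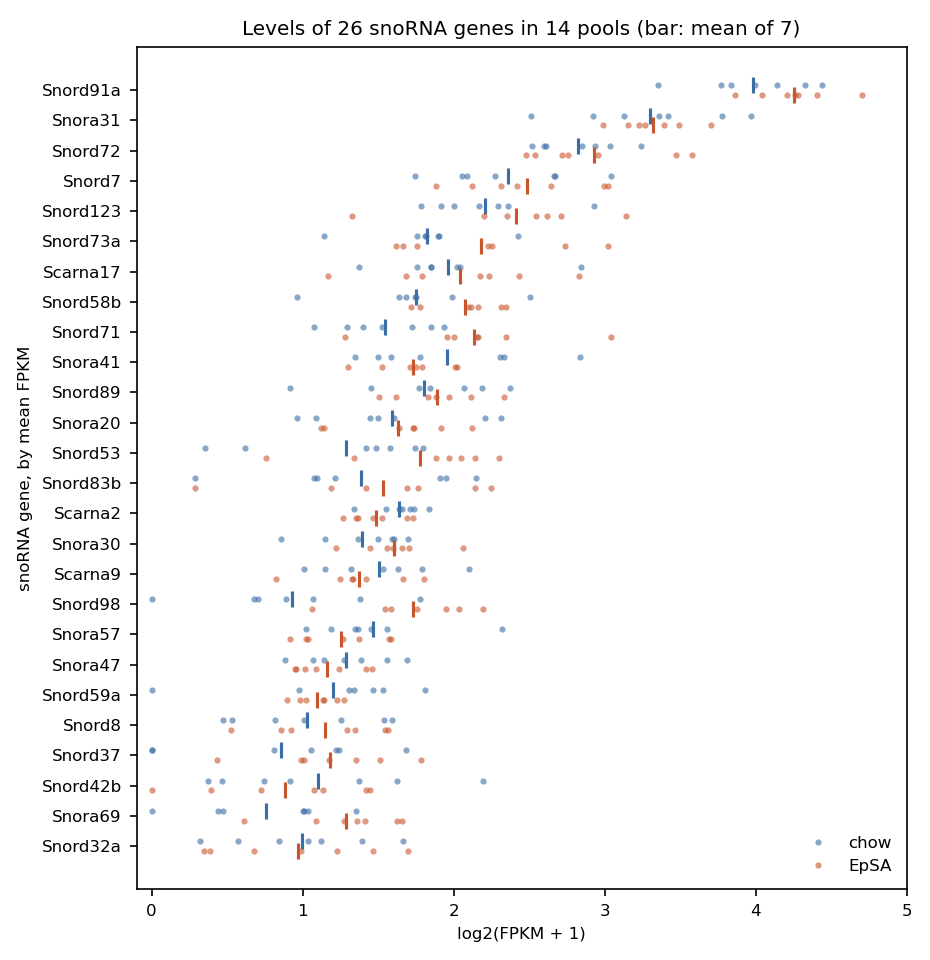
Level of each gene on log2(FPKM + 1) (x axis) in the 7 chow pools (blue) and the 7 EpSA pools (orange), genes ordered by mean FPKM, with bars at the mean of each diet. The ranges of chow and EpSA overlap in all 26 genes.

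Scarna2, an independent gene of 414 bases outside any host, averaged 1.97 FPKM and rested on about 36.4 fragments per pool. Just inside the level were Snord42b at 1.15, Snora69 at 1.13 and Snord32a at 1.07 FPKM, and just outside were Snora78 at 0.97, Snora2b at 0.759 and Snord35a at 0.632. Several snoRNAs known as abundant in other settings were near 0. Snord118, the U8 RNA, was at 0.133 FPKM, Snord13 at 0.275 and Snora73a at 0.141, and Snora73b and Snord14a were listed at 0 in all pools. No symbol of the Snord115, Snord116 or Snord3 genes was matched in the tables. The sources used here name no step that selects or removes small RNAs.

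In EpSA kidneys the level averaged over the day was above chow for 18 of the 26 genes, but no gene passed the test. The model was limma on log2(FPKM + 1) over 13344 genes with a mean of at least 1, with time as a factor and p-values adjusted by Benjamini-Hochberg at 0.05. Of all genes tested 46.1% were above 0, and 0.0225% passed (0.00749% higher and 0.015% lower). At an unadjusted p under 0.05, 4 of the 26 were higher and 0 lower, where 8.76% and 10.3% of all genes were. The median log2 difference was 0.11 for the 26 genes and -0.01 for all genes tested. By class it was 0.18 for Snord (13 of 16 above 0), 0.02 for Snora (4 of 7) and -0.13 for Scarna (1 of 3). A gene can reach the level through 1 diet alone, as Snord37 and Snora69 did through EpSA and Snord42b through chow, so these counts carry a part fixed by the choice of genes. The chow and EpSA pools of no gene stood fully apart, as they did in 0.892% of all genes.

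The 4 genes with the largest differences were each higher in EpSA at 6 of 7 times. Snord98 was at 0, 0.60, 2.43, 1.60, 0.86, 1.10 and 0.63 FPKM in chow from ZT 1 to ZT 25, and at 2.00, 1.08, 1.92, 2.87, 3.10, 2.38 and 3.58 in EpSA. All EpSA pools were above the chow median, and only at ZT 9 was EpSA the lower. The log2 difference was 0.80 ± 0.20 (SE, limma, adjusted p = 0.103), from about 20.8 fragments in all chow pools and 48.9 in all EpSA pools. Snord71 was at 1.10 to 2.82 FPKM in chow with a median of 1.87, and at 1.43 to 7.23 in EpSA with a median of 3.45. It differed by 0.59 ± 0.20 (limma, adjusted p = 0.174) and was lower in EpSA only at ZT 1. Snora69, in the ribosomal protein gene Rpl39, was at 0 to 1.55 FPKM in chow with a median of 1.00, and at 0.53 to 2.15 in EpSA with a median of 1.57. Its difference was 0.53 ± 0.15 (limma, adjusted p = 0.134), with ZT 9 the exception, and since its mean was 0.764 FPKM in chow and 1.51 in EpSA, it reached the level only through EpSA and the choice of genes favoured this direction. Snord53, in Wdr43, a nucleolar factor of rRNA processing, differed by 0.49 ± 0.21 (limma, adjusted p = 0.256), and its difference of 1.95 at ZT 25 was larger than at any other time. Without ZT 25 it was 0.25. Exact two-sided sign-flip tests of the 7 time differences gave an unadjusted p of 0.031 for Snord98, 0.047 for Snord71 and 0.062 for Snord53, where 0.016 is the smallest possible. The same test gave 0.047 for Snora69, whose direction the choice of genes favoured. All of these genes were picked as the largest of the 26 differences, ranked on the same 7 time differences. Their sign-flip p-values carry that choice.

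Other genes above chow were Snord73a at 0.36, Snord58b and Snord37 at 0.32 each and Snord91a at 0.27 on the log2 scale, none with an unadjusted p under 0.05. These 4 values rested partly on single times: they were 0.11 for Snord73a without ZT 9, 0.19 for Snord58b without ZT 13, 0.077 for Snord37 without ZT 5 and 0.092 for Snord91a without ZT 21. Below chow were Snora41 at -0.23, Snord42b and Snora57 at -0.21 each, Scarna2 at -0.15, Scarna9 at -0.13, Snora47 at -0.12, Snord59a at -0.11 and Snord32a at -0.02. Of these Scarna2 had the smallest error, 0.07, and was lower at 5 of 7 times (limma, adjusted p = 0.273). With 1 time left out, the values nearest 0 were -0.045 for Snora41 without ZT 13, -0.090 for Snora57 without ZT 21, -0.025 for Scarna9 without ZT 21, -0.033 for Snora47 without ZT 25 and -0.035 for Snord59a without ZT 17, while Snord42b without ZT 1 and Snord32a without ZT 17 or ZT 25 were above 0. Snora57 has no same-strand host and lies opposite Lbhd1, and Snord8 lies opposite Gm26590, and whether the counting used strand is not given in the sources used here.

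**Figure D3:**
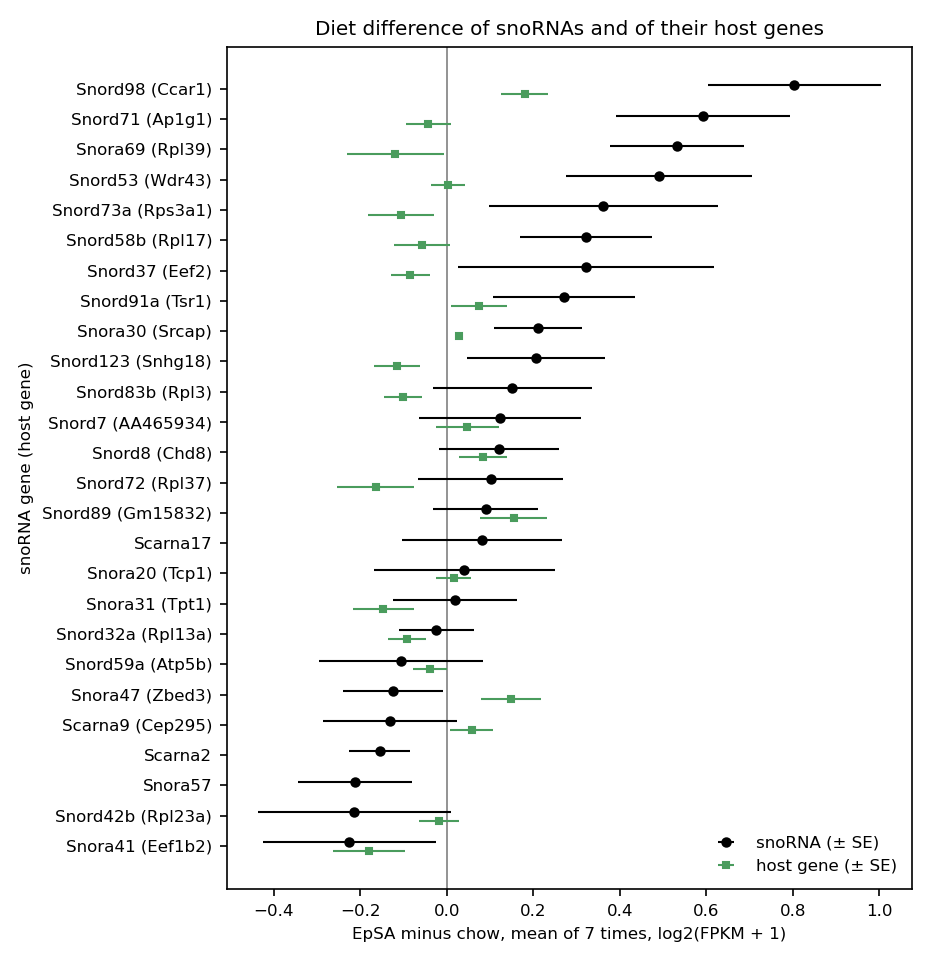
EpSA minus chow on log2(FPKM + 1), averaged over 7 times (x axis), for each snoRNA gene (black) and its host gene (green), with SE from limma. Srcap, the host of Snora30, was below the level for testing and has no error bar. The 4 topmost snoRNAs lie between 0.49 and 0.80, and all hosts lie between -0.18 and 0.18.

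The 16 Snord genes summed to 49.7 ± 8.0 FPKM in chow and 61.2 ± 6.4 in EpSA (SD over 7 times), and were higher in EpSA at 7 of 7 times. At ZT 1 the sums were 50.5 and 50.8, and at ZT 25 they were 41.4 and 66.8. The 7 Snora genes summed to 20.4 ± 4.0 FPKM in chow and 19.9 ± 2.5 in EpSA, higher in EpSA at 3 of 7 times. The 3 Scarna genes summed to 7.13 ± 2.00 and 6.84 ± 1.58, also higher at 3 of 7. The sums are weighted toward Snord91a and Snora31 and were not tested.

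None of the 22 host genes tested passed for the diet. Of the 23 hosts 13 were below chow in EpSA, with a median of -0.04, where 46.1% of all genes tested were above 0. All 9 hosts that encode ribosomal proteins or elongation factors were below 0 with a median of -0.10, while 6 of their 9 snoRNAs were above 0. In 17 of 23 pairs the snoRNA's log2 difference was above that of its host, with a median gap of 0.18, and in 9 pairs the snoRNA was above 0 and the host below. Snord37 and Snora69 reached the level only through EpSA and Snord42b only through chow. All of them have hosts of this ribosomal or elongation kind, so the counts carry a part fixed by the choice of genes. Snord98 exceeded Ccar1 by 0.62 at 6 of 7 times (exact two-sided sign-flip p = 0.062, unadjusted), with Ccar1 itself at 0.18 ± 0.05 (limma, adjusted p = 0.144). Snord71 exceeded Ap1g1 by 0.64 (exact p = 0.047, unadjusted), and Snord53 exceeded Wdr43 by 0.49 (exact p = 0.047, unadjusted). Snora69 exceeded Rpl39 by 0.65 (exact p = 0.062, unadjusted), in the direction that the choice of genes favoured. These are the pairs with the largest snoRNA differences of the 23, and their p-values carry that choice.

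Across the 14 pools the correlation of a snoRNA with its host had a median r of -0.01 over the 23 pairs, from -0.64 for Snord123 with Snhg18 to 0.65 for Snord91a with Tsr1. With the hosts of other snoRNAs the median was -0.07. These are descriptions over 14 pools that share libraries and diets. At 5 loci the snoRNA had a higher FPKM than its host, with the limit above for genes shorter than the read, namely Snora30, Snord91a, Snord89, Snord7 and Scarna9. Snora30 was at 1.88 FPKM while Srcap, a chromatin remodeller, was at 0.369. At the other end Snord59a reached 1.30 FPKM in an intron of Atp5b, the beta subunit of ATP synthase, at 598 FPKM.

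Genes named after the snoRNAs they host did not pass either. Snhg15 was at 0.25 ± 0.08 and Snhg17 at 0.11 ± 0.04 on the log2 scale (limma, adjusted p = 0.154 and 0.199). Gas5, the host of many box C/D snoRNAs, averaged 22.3 FPKM in each diet, and its difference was 0.00 ± 0.05. Snhg18, the host of Snord123, was lower in EpSA at 7 of 7 times by -0.12 ± 0.05 (limma, adjusted p = 0.273). Snord123 was higher at 6 of 7 times, by 0.21 ± 0.16 over the day (limma, adjusted p = 0.507), with -0.84 at ZT 1.

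A further 44 genes typed as snoRNA or scaRNA under other symbols also had a mean of at least 1. Of these 36 were above 0 in EpSA, with a median log2 difference of 0.19, and 12 had an unadjusted p under 0.05, all higher, where 46.1% of all genes tested were above 0 and 8.76% were higher at that p. None passed in limma. The same level was applied to them, and a gene can reach it through 1 diet alone. These counts therefore also carry a part fixed by the choice of genes. The 44 included Rnu73b, typed as a snoRNA, at 0.47 ± 0.23. Among short RNAs of other kinds, Rpph1, the RNA of RNase P, was at -0.25 ± 0.12, and the Y RNAs Rny1 and Rny3 were at 0.03 and -0.16.

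Of the long RNAs that stay in the nucleus, all 4 tested were above chow with an unadjusted p under 0.05 (Malat1 at 0.41 ± 0.10, Firre at 0.33 ± 0.06, Snhg11 at 0.23 ± 0.10 and Neat1 at 0.22 ± 0.10) and none passed after adjustment. Of all genes tested 8.76% were higher at that p, and this list was chosen with earlier results of these data known. Their summed level was 378 to 524 FPKM in the chow pools and 503 to 662 in the EpSA pools. Of 6 replication-dependent histone genes, whose mRNAs also lack a poly(A) tail, 5 were below 0, with Hist1h1c at -0.50 and Hist1h4h at -0.49. Of all genes tested 46.1% were above 0. At an unadjusted p under 0.05 in limma 3 of the 6 histone genes were lower, as were 10.3% of all genes. Whether the snoRNA differences are part of a difference in nuclear RNA was not tested.

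Markers of kidney cells were high in every pool. The 9 together were at 2195 to 2425 FPKM in chow (median 2318) and 1983 to 2363 in EpSA (median 2124). In limma 4 were higher in EpSA and 2 lower at an unadjusted p under 0.05, where 8.76% and 10.3% of all genes were. Red blood cell markers summed to 311 to 582 FPKM in chow and 254 to 353 in EpSA, with both genes lower at that p. Fat markers summed to 22.1 to 101 FPKM in chow and 10.1 to 118 in EpSA. Immune markers summed to 375 to 997 FPKM in the chow pools at ZT 1, 5, 9 and 13 and to 139 to 186 in the other chow pools and all EpSA pools. The adrenal markers Hsd3b1 and Cyp21a1 summed to 77.7 FPKM in the EpSA pool at ZT 9 and to at most 0.183 elsewhere. Without ZT 9, 16 of the 26 snoRNAs were above 0, and without any single time between 15 and 18 were. The part of these cells in the snoRNA levels was not tested.

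Over the day, 1 of the 26 genes was called, Snord32a in EpSA. In EpSA it was at 0.27, 0.60, 1.34, 2.24, 1.76, 0.98 and 0.31 FPKM from ZT 1 to ZT 25, and in chow at 0.25, 0.49, 1.05, 1.63, 2.16, 1.18 and 0.80. In each diet it was lowest at ZT 1 and had a single high point, at ZT 13 in EpSA and at ZT 17 in chow. A 24 h cosine fitted to log2(FPKM + 1) had an amplitude of 0.65 ± 0.05 (SE) and a peak at 13.9 h in EpSA, which passed (limma, adjusted p = 0.020). In chow the amplitude was 0.56 ± 0.09 with a peak at 15.5 h, which did not pass (adjusted p = 0.177). In EpSA 0.0525% of all genes passed. The test of a difference of rhythm between diets gave Snord32a an unadjusted p of 0.094 (limma, adjusted p = 0.82). The authors' deposited table gave it a meta2d p of 0.0052 in chow and 4.76e-05 in EpSA, with meta2d q-values of 0.425 and 0.193. The course rests on about 56.8 fragments over all 14 pools, and at most 8.78 in any. The call was lost without ZT 1, ZT 9, ZT 13, ZT 17 or ZT 25, where the adjusted p was 0.114, 0.128, 0.156, 0.113 and 0.081.

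**Figure D4:**
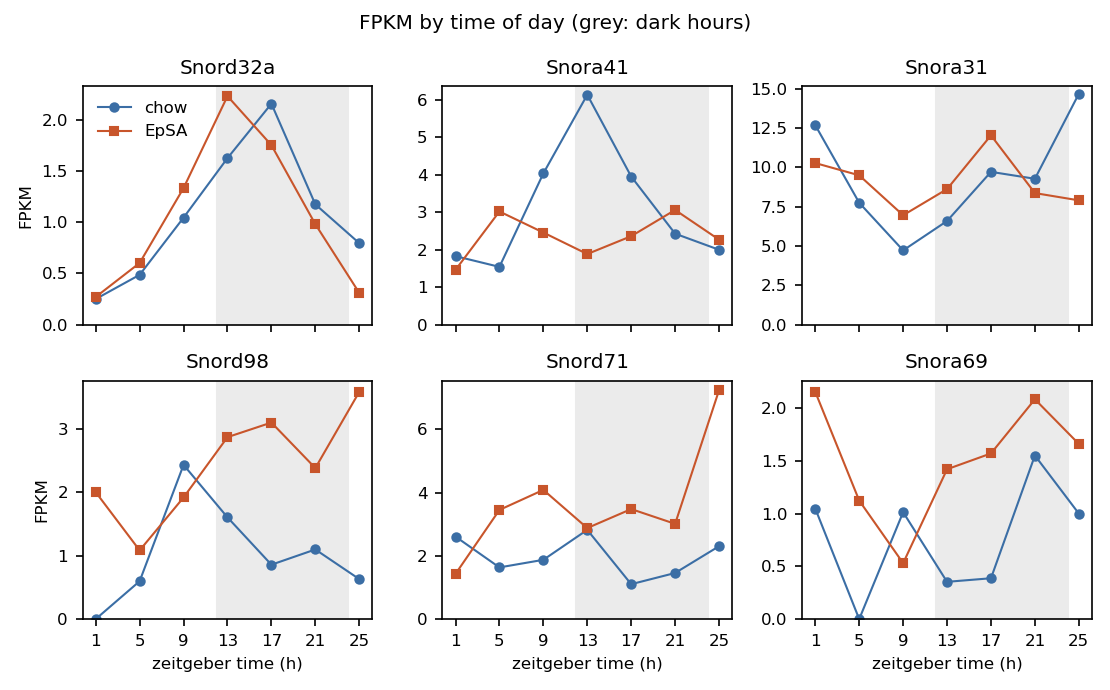
FPKM (y axis) by zeitgeber time in h (x axis) in chow (blue circles) and EpSA (orange squares), each point a mean over 3 mice, with the dark hours in grey. Snord32a peaks at ZT 13 or ZT 17 in both diets, Snora41 peaks at ZT 13 in chow alone, and Snord98 lies above chow at 6 of 7 times.

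The host Rpl13a was between 33.0 and 40.8 FPKM in all pools, its cosine amplitude was 0.09 in each diet, and its correlation with Snord32a over the 14 pools was -0.60. Another snoRNA of the same gene, Snord35a, was above 0 in 11 pools and highest at ZT 21 in chow (1.43 FPKM), and at 0 in EpSA at ZT 13, where Snord32a was highest. Snord34 was above 0 in 7 pools and listed at 0 at ZT 13 and ZT 17 in both diets. Averaged over the day, these 3 snoRNAs were at -0.02, -0.05 and -0.05 in EpSA relative to chow on the log2 scale. They are the snoRNAs of Rpl13a whose symbols were matched, which need not be all that the gene hosts. At about 35.3 fragments for Snord35a and 6.87 for Snord34 over all pools, both were below the level for testing and were not tested.

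In chow no snoRNA passed the cosine test, where 0.0674% of all genes did, and 7 of 26 had an unadjusted p under 0.05 (10.4% of all genes). Snora41, in an intron of the elongation factor gene Eef1b2, was at 1.83, 1.54, 4.04, 6.14, 3.95, 2.43 and 2.00 FPKM from ZT 1 to ZT 25 in chow. In EpSA it was between 1.46 and 3.06. The amplitude was 0.65 ± 0.09 in chow (limma, adjusted p = 0.128) and 0.01 ± 0.14 in EpSA, and the difference of rhythm had an unadjusted p of 0.0083 (limma, adjusted p = 0.82). Eef1b2 had an amplitude of 0.15 in chow and 0.08 in EpSA. Snora31 in chow was at 12.7 FPKM at ZT 1, lowest at ZT 9 with 4.72, and highest at ZT 25 with 14.7. It had an amplitude of 0.57 ± 0.12 (limma, adjusted p = 0.273). In EpSA its amplitude was 0.16 ± 0.12.

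The other low p-values in chow belonged to Snord73a, Snord7, Snord59a and Snord98, with amplitudes of 0.44, 0.50, 0.64 and 0.55. In EpSA 4 of 26 had an unadjusted p under 0.05 (8.52% of all genes). Besides Snord32a these were Snord8, Snora69 and Snord58b, with amplitudes of 0.46, 0.43 and 0.29 (limma, adjusted p = 0.396, 0.491 and 0.551). For the difference of rhythm 0 passed in limma (0.0% of all genes), and 3 had an unadjusted p under 0.05 (4.63% of all genes), Snora41, Snord59a at 0.041 and Snora31 at 0.044. Snord73a, Snord98 and Snord32a came next, at 0.059, 0.072 and 0.094. By the authors' deposited table, 3 of the 26 had a meta2d p under 0.05 in chow (11.8% of all genes) and 2 in EpSA (9.82%), and 0 had a q under 0.05 in either diet, where 0.0% and 0.015% of all genes did. Snord8 was the second in EpSA, with a meta2d p of 0.0029 in the authors' deposited table.

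In chow 11 of 26 had their highest pool at ZT 17, as did 8.69% of all genes tested, and 21 were above their own median over the 14 pools there. In EpSA 6 of 26 were highest at ZT 17 (11.4% of all genes), and 19 were above their own median. The summed FPKM of the 26 was 100.2 at ZT 17 in chow and 102.3 at ZT 17 in EpSA, and between 66.7 and 93.9 in the other 12 pools. The 4 genes highest at ZT 17 in both diets were Snord123 at 6.62 and 7.82 FPKM, Scarna17 at 6.17 and 6.10, Snord89 at 4.18 and 4.03, and Snord59a at 2.50 and 1.42. The share of all genes above their own median in these pools was not computed. Each time was 1 pool per diet, with all genes measured in the same 3 mice, so the high values at ZT 17 have no error of their own. The same clock hour 1 day apart, ZT 1 and ZT 25, differed by a median of 0.39 on the log2 scale in these genes and by 0.12 in all genes tested.

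**Figure D5:**
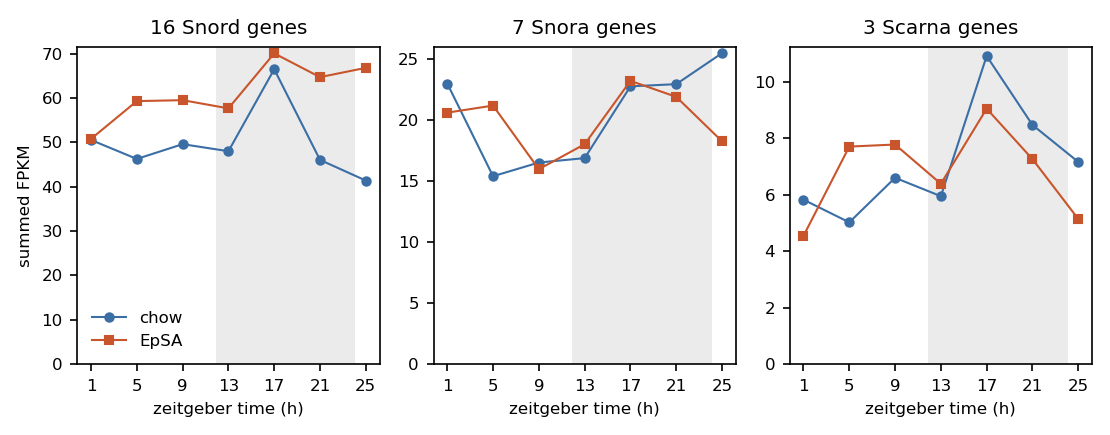
Summed FPKM (y axis) of the Snord, Snora and Scarna genes by zeitgeber time in h (x axis) in chow (blue circles) and EpSA (orange squares), dark hours in grey. The Snord sum lies higher in EpSA at 7 of 7 times, and the Snord and Scarna sums are highest at ZT 17 in both diets.

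Genes that make and use snoRNAs showed no call for the diet. In the box C/D core, Nop58 was at 0.10 ± 0.04 and Nop56 at 0.08 ± 0.05 on the log2 scale, Fbl, which encodes fibrillarin, at 0.00 ± 0.05 and Snu13 at -0.07 ± 0.05. In the box H/ACA core Nhp2 was at -0.32 ± 0.09 (limma, adjusted p = 0.12), at 63.9 FPKM in chow and 50.9 in EpSA, while Dkc1 (dyskerin), Gar1 and Nop10 were between -0.03 and 0.01. Of 9 assembly factors 7 were below 0, with Pih1d1 at -0.22 ± 0.05 and lower at 7 of 7 times (limma, adjusted p = 0.104). Among 12 genes of snoRNA release and trimming Zcchc7, a cofactor of nuclear RNA decay, was at 0.16 ± 0.04 (limma, adjusted p = 0.119), and Dbr1, which opens the intron lariat, at 0.03 ± 0.05. Of 6 Cajal body genes 3 were above and 3 below 0, with Nhp2, counted here too, at -0.32, Tgs1 at 0.14, and Smn1 and Wrap53 at -0.10 each. Of 21 genes of rRNA transcription and early processing 11 were above 0, with Taf1d at 0.21 ± 0.05 and Imp3 at -0.30 ± 0.10. Imp3 was at 46.65 FPKM in the chow pool at ZT 21 and at 30.0 to 33.7 in the other chow pools. Nhp2 had its highest chow value in that pool too, at 73.8 FPKM. No gene of these lists passed for rhythm in either diet.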

How the data were processed

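The authors deposited 1 table per diet with 7 expression columns. The headers name no unit, and the deposited values were read as FPKM from their dependence on gene length. The authors also deposited rhythm statistics from meta2d, namely p-values, q-values and a ratio of amplitude to baseline (not printed here), per the file headers. Each column is read as a mean over 3 mice, since its values end as means of 3 numbers rounded to hundredths do. Aligner, counting, build and annotation are not given in the sources used here. Symbols came from the reference names (52073 of 56691 identifiers matched), and places, lengths, hosts and sequences from GENCODE M21 (GRCm38), which may not be the authors' build. A host is the highest same-strand gene that spans the snoRNA.

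Genes with a mean of at least 1 (13344) were tested on log2(FPKM + 1), a scale that understates changes of low genes, with limma 3.58.1 in R 4.3.3, without a mean-variance trend. Each of the 14 means is 1 sample, so the error is the spread between times, not between mice. All other steps used matplotlib 3.10.9, numpy 2.4.6, pandas 2.3.3, scipy 1.17.1 and Python 3.11.15. The fits were tested on simulated data.

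The genes, lists and tests were chosen with earlier results of these data known. Named are the 12 highest snoRNAs, those called, the 8 highest and 8 lowest diet differences, the 6 lowest p of each rhythm test, 3 on either side of the level of 1, a few by name, their hosts, Snhg genes and list genes with the largest differences; some list genes were added after their values were seen. Alternatives covered pseudocount, filter, scaling, trend, the deposited rhythm statistic and times left out. Fragment numbers come from the lowest step of FPKM times length and cover counting error only.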

Additional observations from a re-analysis of the deposited data

Results flagged for a closer look

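In the 7 pools of a diet, 3 values lay far from the rest of their own diet. Snord123 in chow was at 6.62 FPKM at ZT 17, with the next pool at 4.12. Scarna17 in chow was at 6.17 FPKM at ZT 17, with the next at 3.12. Snora57 in chow was at 3.997 FPKM at ZT 21, with the next at 1.95. The pools of a diet are different times and not replicates of one group. With 52 sets of 7 examined, chance gives about 2.6 such values.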

How the results depend on the processing

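Low depth limits every value: 13 of 26 genes had under 10 fragments per pool, and only 3 had a mean of at least 5 FPKM. The counts of snoRNAs called for diet, for rhythm in chow and for a difference of rhythm were 0 in limma under every alternative run for them. The count for rhythm in EpSA, 1, was 0 with a pseudocount of 0.1 or 5, with no filter, with a mean of at least 5 (where Snord32a was not among the 3 snoRNAs tested) and by the authors' deposited meta2d p-values adjusted over the genes tested, and with single times left out it lay between 0 and 1. The adjusted p of Snord32a in EpSA was 0.134 and 0.094 with those pseudocounts and 0.237 with no filter. The log2 diet difference turned to 0.10 for Snord59a with a pseudocount of 0.1, to 0.021 for Snord42b without ZT 1, and to 0.0052 and 0.048 for Snord32a without ZT 17 and without ZT 25; with single times left out they ranged from -0.31 to 0.021 and from -0.078 to 0.048. The unadjusted sign-flip p of Snord98, Snord71 and Snora69 was under 0.05, where the limma p adjusted over 13344 genes was not. Their unadjusted limma p was under 0.05 too, at 0.0028, 0.016 and 0.0070. The causes of the changes listed before were not tested. The median difference of the snoRNAs lay between 0.055 and 0.15 in every alternative run. That of snoRNA minus host lay between 0.14 and 0.21 with single times left out. Over all genes 1 was higher and 2 lower in EpSA, 21 and 10 with a trend in limma, 32 and 24 with a pseudocount of 5, 6 and 5 with no filter, 4 and 2 after median centring, 41 and 30 with a mean of at least 5, and 0 to 3 and 0 to 2 with single times left out. The genes passing for rhythm numbered 9 in chow and 7 in EpSA, 0 and 3 with a pseudocount of 0.1, 4 and 4 with a pseudocount of 5, 4 and 5 by quantile normalization, 7 and 4 after median centring, 0 and 0 with no filter, and 0 to 2 and 2 to 6 with single times left out. No paired analysis was possible because the columns are means over mice and carry no replicate number, while the tests of the diet matched the diets by time.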
